A study of Mus musculus with 70 samples.

Results

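The pituitary gland holds, beside its hormone-producing cells, the capillaries that carry releasing factors in and hormones out, the pericytes and fibroblasts around them, resident macrophages and the blood inside the vessels. Here 38 marker and signalling genes of these non-endocrine cells were followed by RNA-seq, out of 22835 genes in the table. They were chosen by name, with earlier results of these data known. The list holds 12 genes of endothelial cells, 3 angiogenic ligands, 5 genes of mural cells (pericytes and smooth muscle) and 3 of fibroblasts. It also holds 9 of macrophages, 3 of leukocytes and lymphocytes and 3 of red blood cells. All 38 were found. Expression was given in CPM (reads of a gene scaled to the size of the library), so levels of different genes cannot be set against each other, since CPM takes no account of transcript length.

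The series compared chromatin and RNA of mouse pituitary in low and high thyroid hormone. The RNA-seq had 18 libraries, each from a pool of 3 pituitaries of adult male C57BL/6J mice aged 2 to 4 months. Every mouse in these groups, controls included, received 0.05% methimazole (MMI, a blocker of hormone synthesis) and 1% KClO4 (a blocker of iodide uptake) in the water they drank, over 4 to 5 weeks. Hypothyroid groups had nothing more, and hyperthyroid groups also had 0.5 µg/ml T3, the active hormone, in the final week (1 week). Wild type had 4 libraries in each state, and 5 in each state were labelled *Thrb*-KO. *Thrb* encodes TRβ, a nuclear receptor through which T3 acts in the pituitary. According to the authors *Thra*, which encodes another T3 receptor, is expressed there too. The KO is a whole-body deletion of *Thrb*, present in vascular and immune cells as well. Because the tissue was whole, fewer cells of a type and less RNA per cell cannot be told apart in any result here. Nothing in the labels says how pools of one group were separated in time or by cage, so p-values measure the spread between pools.

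Endothelial cells are known for the TIE2 receptor (*Tek*), whose agonist is angiopoietin 1 (*Angpt1*) and whose context-dependent antagonist is angiopoietin 2 (*Angpt2*), and for the VEGF receptors *Kdr* and *Flt1*, which bind *Vegfa*. Pituitary capillaries are fenestrated, and *Plvap* forms the diaphragms of such windows. Tissue macrophages depend on the receptor CSF1R, which has the ligands CSF1 and IL-34, and they make the 3 chains of complement C1q (*C1qa*, *C1qb*, *C1qc*).

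Recovered read totals ran from 21453548 to 55273749 per library. The *Thrb*-KO label did not go with less *Thrb* RNA, which averaged 256.7 ± 27.3 CPM (SD, n = 4) in hypothyroid wild type and 270.8 ± 20.1 CPM (SD, n = 5) in hypothyroid *Thrb*-KO. It fell to 104 ± 22.8 CPM (SD, n = 4) in hyperthyroid wild type and was 260.2 ± 32.0 CPM (SD, n = 5) in hyperthyroid *Thrb*-KO. The CPM values cover the whole transcript and cannot show whether that RNA encodes a receptor, so the groups below are those of the labels. Libraries also fell into 2 sets by replicate number, 1 and 2 against 3 to 5, in every group, with *Lars2* at 2571 to 3420 CPM in the first set and 53.2 to 95.1 CPM in the second. Hyperthyroid wild-type replicate 3 stood apart, with *Gh* at 159094 CPM and the lowest scaling factor by edgeR's TMM (0.832).

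Of the 38 genes, 34 had CPM above 1 in all 18 libraries and were tested with 13111 others (13145 genes) by limma on log2(CPM + 1). Their recovered reads ran from 32 to 6172 per gene and library. The endothelial *Cldn5* and the macrophage gene *Aif1* passed only a limit of CPM above 1 in at least 4 libraries and were tested in that wider table of 14472 genes. A gene was called when its Benjamini-Hochberg adjusted p in limma was under 0.05 and its change at least 1.5-fold. The lymphocyte markers *Cd3e* (T cells) and *Cd79a* (B cells) were below 1 CPM in every library, with 5 to 33 and 5 to 30 reads, and were not tested. Endothelial, mural, fibroblast, macrophage and red cell markers were thus present in every library, while lymphocyte markers were near the limit of detection.

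The clearest difference among the 38 genes was in macrophages, between genotypes under hypothyroidism. Of the 34 tested genes 8 were called in hypothyroid *Thrb*-KO against hypothyroid wild type, against 3.02% of all genes tested, and 7 of the 8 were macrophage genes that fell. All 8 tested macrophage genes had every *Thrb*-KO library below every wild-type library, a pattern found in 6.7% of all genes tested. The median log2 difference of the macrophage list was -0.79, beside 0.03 over all genes. Lists of the other cell types had medians of -0.50 to 0.31, and 1 gene outside the macrophage list was called. Members and the lists used below were chosen with earlier results of these data known. The shares of all genes thus give these counts a scale and are no independent test.

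*Csf1r*, the receptor on which macrophages depend, was at 38.5, 39.4, 44.8 and 42.5 CPM in hypothyroid wild type and at 25.6, 24.5, 24.8, 22.1 and 22.3 CPM in hypothyroid *Thrb*-KO. Every *Thrb*-KO library lay well below the lowest wild-type library. The log2 difference was -0.77 ± 0.13 (SE), with an adjusted p of 0.0007593 in limma. *Cx3cr1*, the fractalkine receptor of resident macrophages and microglia, was at 19.2, 16.7, 16.5 and 13.9 CPM in wild type and 12.4, 10.4, 9.39, 8.38 and 10.5 CPM in *Thrb*-KO. The groups did not overlap, and the log2 difference was -0.65 ± 0.12 (adjusted p = 0.001274, limma). Without hypothyroid wild-type replicate 1 it was -0.58, just under the fold limit.

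The 3 chains of C1q, which binds immune complexes and cell debris and starts the classical complement pathway, fell together. *C1qa* was at 17.2, 16.8, 19.8 and 19.8 CPM in hypothyroid wild type and at 11.6, 11.9, 8.41, 9.47 and 8.09 CPM in hypothyroid *Thrb*-KO. *C1qb* was at 28.2, 26.0, 36.1 and 32.7 CPM and at 18.4, 17.0, 16.4, 16.4 and 15.8 CPM in the same order. *C1qc* was at 20.9, 19.3, 24.1 and 21.0 CPM and at 14.0, 12.96, 10.3, 11.1 and 10.3 CPM. For each chain the *Thrb*-KO libraries lay below all wild-type libraries, more so in replicates 3 to 5. The log2 differences were -0.84 ± 0.17, -0.83 ± 0.16 and -0.82 ± 0.14 (SE), with adjusted p of 0.003719, 0.003104 and 0.0009363 in limma. Within replicates 1 and 2 alone *C1qa* differed by -0.50 and *C1qc* by -0.54, under the fold limit, and within replicates 3 to 5 by -1.11 and -1.02.

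*Lyz2*, lysozyme of macrophages and granulocytes, had the largest difference of the 34. It was at 11.4, 8.63, 16.1 and 16.6 CPM in hypothyroid wild type and 4.61, 5.53, 4.67, 5.92 and 6.46 CPM in hypothyroid *Thrb*-KO. The groups did not overlap, although the wild-type libraries were spread widely. The log2 difference was -1.10 ± 0.26 (adjusted p = 0.01274, limma), and the call was lost without wild-type replicate 3 (-1.0) or replicate 4 (-0.99). *Mrc1*, the mannose receptor CD206 of perivascular and tissue-resident macrophages, was at 6.76, 8.31, 7.81 and 7.32 CPM in wild type and 4.78, 3.89, 3.93, 4.34 and 4.54 CPM in *Thrb*-KO. These groups did not overlap either, and the log2 difference was -0.69 ± 0.17 (adjusted p = 0.0144, limma). Within replicates 3 to 5 alone it was -0.70 and not called (adjusted p = 0.06895). *Cd68*, a protein of macrophage lysosomes, averaged 4.17 ± 0.57 CPM (SD, n = 4) and 2.74 ± 0.28 CPM (SD, n = 5). Its log2 difference of -0.46 passed the adjusted p (0.02649) but not the fold limit. *Aif1* (IBA1, an actin-binding protein of macrophages) differed by -0.48 in the wider table, with an adjusted p of 0.1975 and no overlap between groups.

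**Figure D1:**
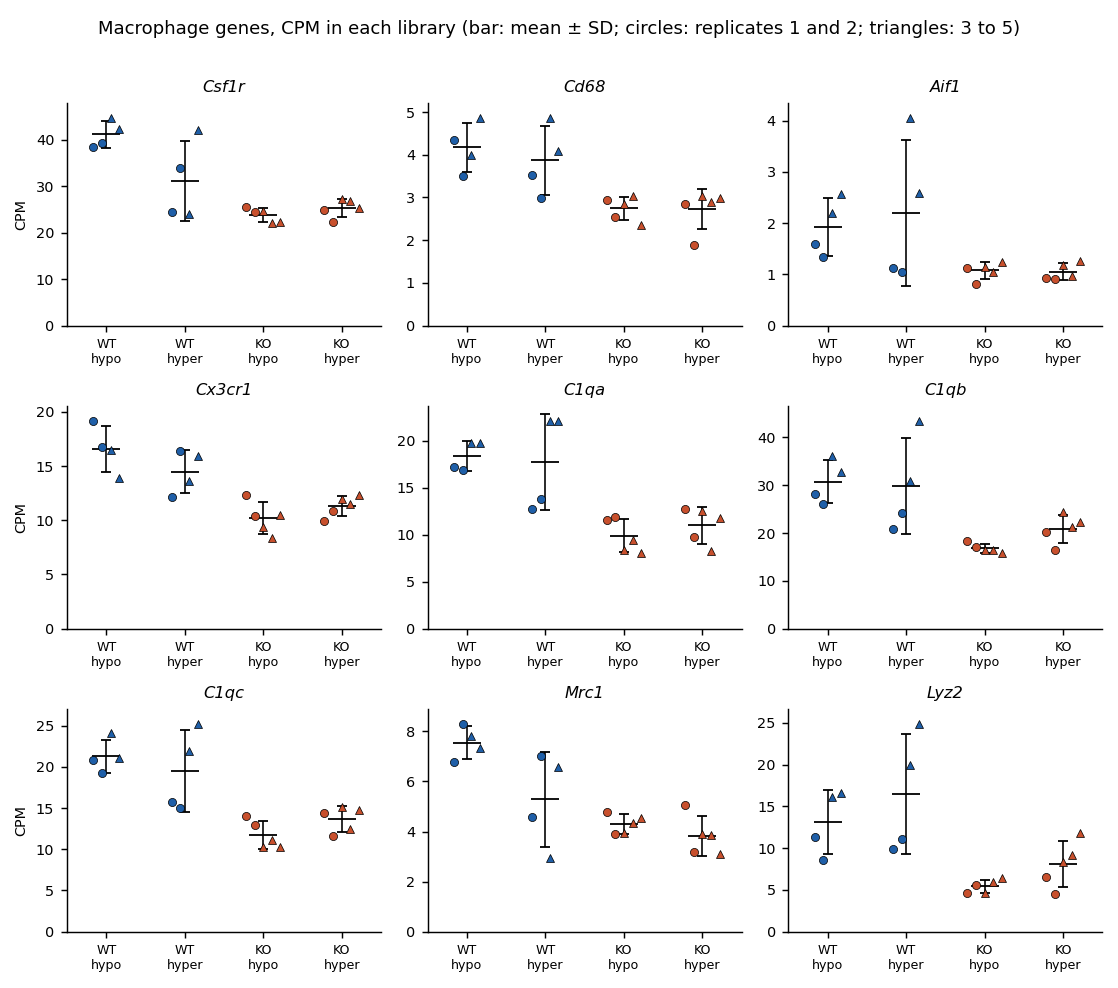
CPM of the 9 macrophage genes in each library of the 4 groups; the horizontal bar is the mean and the whisker the SD, circles are replicates 1 and 2 and triangles replicates 3 to 5. In hypothyroid groups every *Thrb*-KO point lies below every wild-type point, and for 8 of the 9 genes, all but *Cx3cr1*, hyperthyroid wild type has the largest SD of the 4 groups (*Lyz2* 9.94 to 24.9 CPM).

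*Ptprc* (CD45, on all white blood cells) was at 7.76, 8.31, 6.38 and 7.61 CPM in hypothyroid wild type and at 6.43, 5.40, 4.34, 4.21 and 4.96 CPM in hypothyroid *Thrb*-KO. The groups overlapped by a single *Thrb*-KO library, and the log2 difference of -0.50 ± 0.16 had an adjusted p of 0.07876 in limma. It was called by edgeR's quasi-likelihood test and by DESeq2 on recovered reads, which each called 10 members, the same 8 plus *Cd68* and *Ptprc* (4.09% and 4.41% of all genes). With the replicate number as a block the adjusted p of *Ptprc* was 0.04384, and its log2 difference, at -0.50, stayed under the fold limit.

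Further macrophage genes were looked at from a list of 22, of which 15 were tested. In hypothyroid *Thrb*-KO all 15 had a negative log2 difference (median -0.60) and 9 were called, all lower, where 2.01% of all genes tested were called lower. *Il34*, which encodes the other ligand of CSF1R beside CSF1, had the largest difference. It averaged 14.1 ± 3.44 CPM (SD, n = 4) in hypothyroid wild type and 3.07 ± 0.55 CPM (SD, n = 5) in hypothyroid *Thrb*-KO, a log2 difference of -1.87 ± 0.14 (adjusted p = 1.144e-07, limma). IL-34 is known as a product of epithelial and neural cells rather than of macrophages, but *Il34* is counted among the 15 tested and the 9 called. *Ctss*, the lysosomal protease cathepsin S, averaged 30.6 ± 7.14 and 15.1 ± 0.48 CPM (log2 difference -0.95), and *Emr1* (F4/80), a surface marker of mature macrophages, 8.09 ± 0.82 and 4.42 ± 0.38 CPM (log2 difference -0.74). *Csf1*, named here after its values were seen, differed by -0.46 with an adjusted p of 0.02025, under the fold limit.

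Other cell types were measured beside this. The summed level of the 9 macrophage genes was 140 to 171.3 CPM in hypothyroid wild type and 81.6 to 95.4 CPM in hypothyroid *Thrb*-KO. The 3 listed genes of the intermediate lobe summed to 469 to 635.5 CPM and 345 to 482.2 CPM, with 1 of the 3 called lower (*Pcsk2*, a prohormone convertase of melanotrophs, log2 difference -0.68). The 6 genes of stem and folliculostellate cells summed to 191.1 to 256.1 CPM and 176.8 to 237.9 CPM, with 1 of 5 called lower. It was *Fxyd5*, a regulator of the sodium pump, at 33.8 ± 10.4 CPM (SD, n = 4) and 5.87 ± 1.42 CPM (SD, n = 5), and its log2 difference of -2.32 (adjusted p = 3.956e-06, limma) was larger than that of any macrophage member. The 9 genes of posterior lobe, glia and nerve summed to 78.0 to 91.4 CPM and 90.0 to 118.5 CPM, with 0 of 8 called in limma. The 12 genes of granulocytes and mast cells summed to 28.4 to 45.4 CPM and 21.1 to 30.7 CPM, with most of them under 0.5 CPM in every library of the group and *S100a8*, *Camp*, *Mpo* and *Elane* at 0 in some library of each hypothyroid group. In hypothyroid wild type all but *Lcn2* were under 0.5 CPM in every library. The sum there is thus mostly *Lcn2* and says little about the other genes of the list. Of 12 endothelial, 5 mural and 3 fibroblast genes none was called between hypothyroid genotypes. What part these differences have in the macrophage result was not tested.

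Under hyperthyroidism the macrophage genes were less uniform in wild type. All 8 tested genes were again lower on average in *Thrb*-KO (median log2 difference -0.42, beside 0.07 over all genes), and 2 were called, *C1qa* and *Lyz2*. Over all 34 tested members 4 were called, against 4.86% of all genes tested. *C1qa* was at 12.8, 13.8, 22.1 and 22.1 CPM in hyperthyroid wild type and at 12.7, 9.71, 12.5, 8.23 and 11.7 CPM in hyperthyroid *Thrb*-KO. The groups did not overlap, by a narrow margin, as for 3.69% of all genes in this direction, and wild-type replicates 3 and 4 were far above replicates 1 and 2. The log2 difference was -0.62 ± 0.17 (adjusted p = 0.02048, limma), but -0.24 within replicates 1 and 2 and -0.99 within replicates 3 to 5. *Lyz2* was at 9.94, 11.1, 19.9 and 24.9 CPM and at 6.52, 4.57, 8.34, 9.21 and 11.8 CPM, with overlap, and differed by -0.90 ± 0.26 (adjusted p = 0.02813). Neither call held without hyperthyroid wild-type replicate 3 (*C1qa* -0.50, *Lyz2* -0.79), without replicate 4 (-0.50 and -0.68) or without *Thrb*-KO replicate 2 (-0.58 and -0.74), and the count of called members was then 2. *Lyz2* was also not called without *Thrb*-KO replicate 1 (-0.85), nor *C1qa* without replicate 4 (-0.53). On recovered reads edgeR and DESeq2 each called 7, adding *C1qb*, *C1qc* and *Cd68* (6.03% and 6.76% of all genes).

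The T3 response of macrophage genes was small in each genotype. In wild type 7 of 8 had a negative log2 difference, as had 7533 of all 13145 genes, and 0 were called in limma, beside 9.46% of all genes. *Csf1r* was at 24.4, 33.9, 24.0 and 42.1 CPM after T3, overlapping the hypothyroid libraries, and its log2 difference of -0.43 ± 0.14 passed the adjusted p (0.02949) but not the fold limit. Without hyperthyroid wild-type replicate 4 both *Csf1r* and *Mrc1* were called, and without replicate 2 *Mrc1* was. In *Thrb*-KO 6 of 8 were positive and 0 were called, beside 1.01% of all genes. *Lyz2* was called within replicates 3 to 5 alone (0.69, against 0.10 within replicates 1 and 2). In that fit of replicates 3 to 5, 162 of 13145 genes were called. The difference between the T3 responses was positive for all 8 tested macrophage genes (0.08 to 0.52), as for 7489 of all 13145 genes. Again 0 were called, beside 4.26% of all genes. It equals the hyperthyroid minus the hypothyroid genotype difference, so it reuses the groups above and is no separate result. *Il34* behaved unlike the macrophage members: it fell with T3 in wild type to 1.68 ± 0.45 CPM (SD, n = 4; log2 difference -2.48) and in *Thrb*-KO to 1.47 ± 0.13 CPM (SD, n = 5; log2 difference -0.71). The responses of *Il34* differed by 1.77 ± 0.20 (adjusted p = 2.037e-05, limma), and after T3 the genotypes differed by -0.11, with an adjusted p of 0.6931.

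Of the 12 endothelial genes and 3 angiogenic ligands, the angiopoietins were those called between genotypes with all libraries, *Angpt1* in each condition and *Angpt2* under hyperthyroidism. *Angpt1*, made by mural and other perivascular cells, was at 39.7, 40.1, 28.0 and 26.9 CPM in hypothyroid wild type and at 57.5, 63.0, 55.3, 59.6 and 54.7 CPM in hypothyroid *Thrb*-KO. After T3 it was at 35.2, 49.0, 27.3 and 30.5 CPM in wild type and at 62.5, 70.8, 60.9, 76.4 and 68.4 CPM in *Thrb*-KO. In each condition all *Thrb*-KO libraries lay above all wild-type libraries, as for 7.6% of all genes in hypothyroid and 7.61% in hyperthyroid pituitary, and wild-type replicates 1 and 2 were the higher ones. The log2 difference was 0.79 ± 0.15 in hypothyroid (adjusted p = 0.002004, limma) and 0.94 ± 0.15 in hyperthyroid libraries (adjusted p = 0.0002229). Within replicates 1 and 2 the hypothyroid difference was 0.58, just under the fold limit, and within replicates 3 to 5 it was 1.02. T3 itself left *Angpt1* without a call in wild type (0.06 ± 0.16) and in *Thrb*-KO (0.22 ± 0.14).

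*Angpt2*, made by endothelial cells when vessels are remodelled, was the 1 of 34 members called for T3 in wild type, where 9.46% of all genes tested were called. It was at 11.0, 10.6, 11.3 and 9.68 CPM in hypothyroid and at 6.79, 7.64, 5.72 and 5.55 CPM in hyperthyroid wild type. These groups did not overlap, as for 11.7% of all genes in this direction. The log2 difference was -0.66 ± 0.13 (adjusted p = 0.000852, limma). When CPM was scaled by TMM it was -0.57 with an adjusted p of 0.00167, under the fold limit. Within replicates 1 and 2 alone it was -0.52 (adjusted p = 0.004784), also under the fold limit, and within replicates 3 to 5 it was -0.79 and called. In *Thrb*-KO it was at 11.1, 12.1, 13.6, 15.9 and 14.6 CPM before and 15.6, 11.7, 16.7, 16.4 and 16.4 CPM after T3, a log2 difference of 0.18 ± 0.11 that was not called. The responses to T3 differed by 0.83 ± 0.17 (adjusted p = 0.005065), the 1 call among 34 members, where 4.26% of all genes were called. After T3 the *Thrb*-KO level was higher by 1.14 ± 0.12 (adjusted p = 2.905e-06), with no overlap. Under hypothyroidism the difference between genotypes was 0.31 ± 0.12, with overlap and an adjusted p of 0.1592. *Vegfa*, the main endothelial growth factor, was at 36.2 to 51.0 CPM over all 18 libraries and was called in no comparison.

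**Figure D2:**
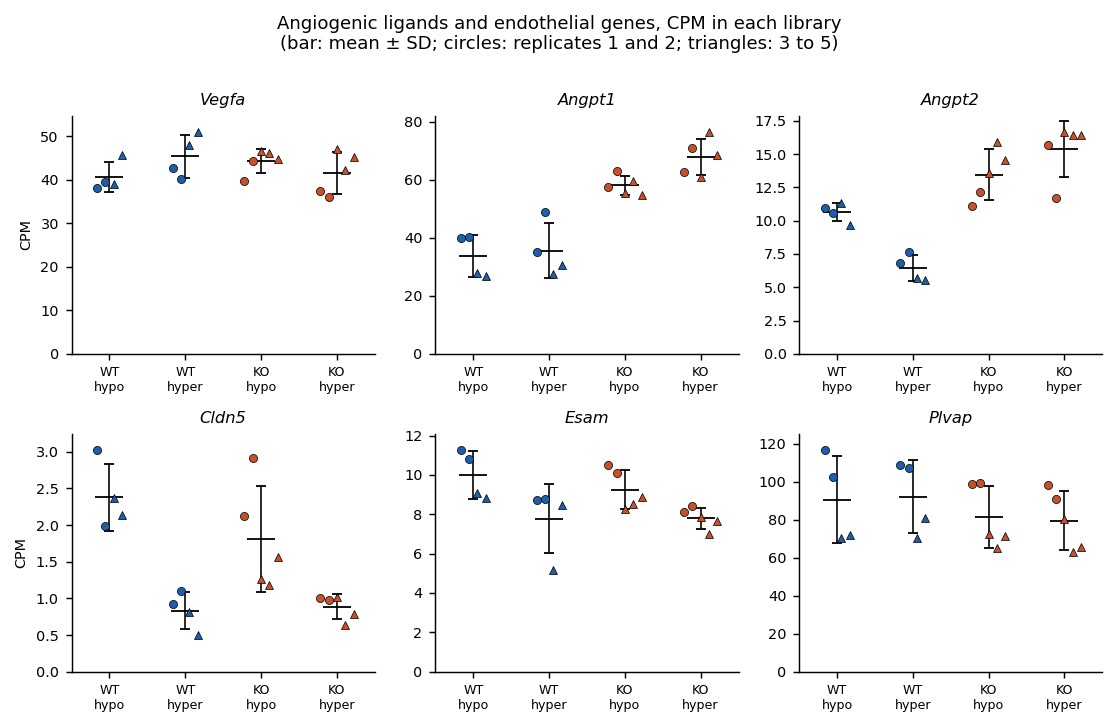
CPM of the 3 angiogenic ligands and of 3 endothelial genes in each library; bars are means and whiskers SD, circles are replicates 1 and 2 and triangles replicates 3 to 5. *Angpt1* is higher in all *Thrb*-KO libraries, *Angpt2* is lowest in hyperthyroid wild type (5.55 to 7.64 CPM), *Cldn5* is lower after T3 in each genotype, and *Plvap* follows the replicate number.

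Of 19 further genes of VEGF, angiopoietin and Notch signalling 17 were tested. T3 in wild type raised *Apln*, which encodes the apelin peptide of sprouting endothelium, from 17.4 ± 4.02 to 30.9 ± 3.95 CPM (SD, n = 4; log2 difference 0.81, adjusted p = 0.0003083 in limma), the 1 call of 17 in that comparison, where 9.46% of all genes were called. In *Thrb*-KO it was 15.6 ± 2.06 and 14.7 ± 1.03 CPM (SD, n = 5), and the responses differed by -0.88 ± 0.19 (adjusted p = 0.007133). Between hyperthyroid genotypes 4 of the 17 were called, beside 4.86% of all genes. *Figf* (VEGF-D, a ligand of lymphatic and blood vessel growth) was higher in *Thrb*-KO by 0.70, while *Apln* and *Epas1* (HIF-2α, an oxygen-sensing transcription factor) were lower by log2 differences of -1.01 and -0.75.

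Of the 11 endothelial genes tested with the main filter none was called in any of the 4 comparisons or in the difference of T3 responses. At an unadjusted p under 0.05 there was 1 for T3 in wild type (*Esam*), 1 for T3 in *Thrb*-KO (*Cdh5*) and 0 between genotypes. Of all 13145 genes 3776 and 1077 passed this for T3 in wild type and in *Thrb*-KO. Between hypothyroid and hyperthyroid genotypes 2415 and 3213 did. By edgeR and DESeq2 0 of the 11 were called as well. In replicates 3 to 5 alone *Kdr* was called for T3 in wild type (-0.78) and *Flt1* between hyperthyroid genotypes (0.62). Of all 13145 genes 1508 and 1114 were called in these 2 fits. With the replicate block 4 passed the adjusted p for T3 in wild type but not the fold limit: *Pecam1* (-0.34, adjusted p = 0.01165), *Cdh5* (-0.28, adjusted p = 0.03339), *Kdr* (-0.52, adjusted p = 0.03619) and *Esam* (-0.34, adjusted p = 0.01875). In *Thrb*-KO *Cdh5*, the cadherin of endothelial junctions, did so too (-0.36, adjusted p = 0.01911). The share of all genes past the adjusted p alone in this blocked fit was not counted, so these counts have no direct scale. At an unadjusted p under 0.05 the blocked fit held 4962 of 13145 genes for T3 in wild type and 1741 in *Thrb*-KO. *Cdh5*, *Kdr*, *Tie1* and *Esam* were each lower after T3 in 4 of 4 same-numbered pairs of wild type and 5 of 5 of *Thrb*-KO. *Pecam1*, *Flt1*, *Tek*, *Emcn*, *Plvap*, *Vwf* and *Eng* were not. The labels do not pair libraries by number, and the share of all genes with this pattern was not counted. *Plvap* was at 117, 102.5, 70.4 and 72.1 CPM in hypothyroid wild type, at 109, 107 and then 70.5 and 81.2 CPM in hyperthyroid wild type, at 98.6, 99.6, 72.7, 65.2 and 71.6 CPM in hypothyroid *Thrb*-KO and at 98.2, 90.7, 80.5, 62.9 and 65.5 CPM in hyperthyroid *Thrb*-KO. All groups overlapped, and in each the highest libraries were replicates 1 and 2. *Esam*, an endothelial junction protein, was lower in all hyperthyroid wild-type libraries (5.15 to 8.77 CPM) than in all hypothyroid ones (8.81 to 11.3 CPM), with a log2 difference of -0.34 and an adjusted p of 0.08338.

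*Cldn5*, the claudin of tight endothelial junctions, was the exception at low level. It was at 3.03, 1.98, 2.36 and 2.14 CPM in hypothyroid and at 0.92, 1.10, 0.81 and 0.50 CPM in hyperthyroid wild type. In *Thrb*-KO it was at 2.12, 2.91, 1.27, 1.18 and 1.57 CPM before and 1.01, 0.97, 1.03, 0.63 and 0.79 CPM after T3. In each genotype all libraries after T3 lay below all libraries before it, at 17 to 106 recovered reads per library. The gene entered the wider table because of its hypothyroid libraries, so a difference was more likely among genes that entered this way. The log2 difference on the CPM + 1 scale was -0.88 ± 0.16 in wild type (adjusted p = 0.0004982, limma), where 10.4% of the wider table was called, and -0.55 ± 0.15 in *Thrb*-KO (adjusted p = 0.05966), where 1.33% was. On recovered reads, edgeR in the same wider table gave -1.45 (adjusted p = 0.00094) and -0.995 (adjusted p = 0.04213), both called, beside 12.3% and 1.69% of the table. With the library set as a block the *Thrb*-KO difference had an adjusted p of 0.005207 and missed the fold limit. Its responses in the genotypes differed by 0.34 ± 0.22, with an adjusted p of 0.5515.

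Of 22 further endothelial genes 19 were tested. T3 in wild type lowered 2 of the 19, beside 9.46% of all genes called in either direction, *Icam2*, an adhesion molecule on resting endothelium (4.37 ± 1.15 to 1.76 ± 0.54 CPM, SD, n = 4, log2 difference -0.96), and *Sox18*, a transcription factor of endothelium (8.33 ± 1.33 to 5.00 ± 2.19 CPM, log2 difference -0.69, adjusted p = 0.04787 in limma). For T3 in *Thrb*-KO *Icam2* was the 1 call of 19, beside 1.01% of all genes, from 4.11 ± 0.60 to 1.65 ± 0.38 CPM (SD, n = 5, log2 difference -0.95). *Sox18* went from 7.27 ± 1.93 to 4.96 ± 1.53 CPM there (SD, n = 5) without a call. The difference of T3 responses was called for 0 of the 19, beside 4.26% of all genes. Between genotypes 0 of the 19 were called in either condition.

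The level of endothelial and mural genes followed the library set. Mean CPM in replicates 1 and 2 over mean CPM in replicates 3 to 5 had a median of 1.44 over 11 endothelial genes and 1.96 over 5 mural genes, beside 0.997 over all genes tested. For 6 of the 11 and 3 of the 5 the sets did not overlap, against 12.7% of all genes. *Tie1*, the co-receptor of TIE2, was at 20.65 to 25.8 CPM in replicates 1 and 2 and at 10.46 to 17.5 CPM in replicates 3 to 5. *Eng*, endoglin, a co-receptor for TGF-β family ligands, was at 40.3 to 55.5 and 20.7 to 33.6 CPM, and *Pdgfrb*, the PDGF receptor of pericytes, at 37.3 to 56.3 and 18.8 to 31.4 CPM. The fibroblast gene *Pdgfra*, also a PDGF receptor, was at 23.6 to 37.2 and 12.7 to 21.3 CPM. In contrast *Emcn*, the endothelial sialoprotein endomucin, overlapped between the sets, at 9.27 to 13.4 and 9.28 to 12.1 CPM. The 8 macrophage genes had a median of 0.933 and none was separated. Each set held all 4 groups, so the sets are crossed with genotype and treatment, but not evenly. Replicates 1 and 2 were 2 of 4 libraries in each wild-type group and 2 of 5 in each *Thrb*-KO group. With the set as a block the genotype difference of *Pecam1* under hypothyroidism was -0.256, and -0.303 without it. That of *Flt1* under hyperthyroidism was 0.318, and 0.225 without it. The block changed no genotype call of a member. The labels name 2 library kits without saying which library had which, and the part of a kit was not tested.

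**Figure D3:**
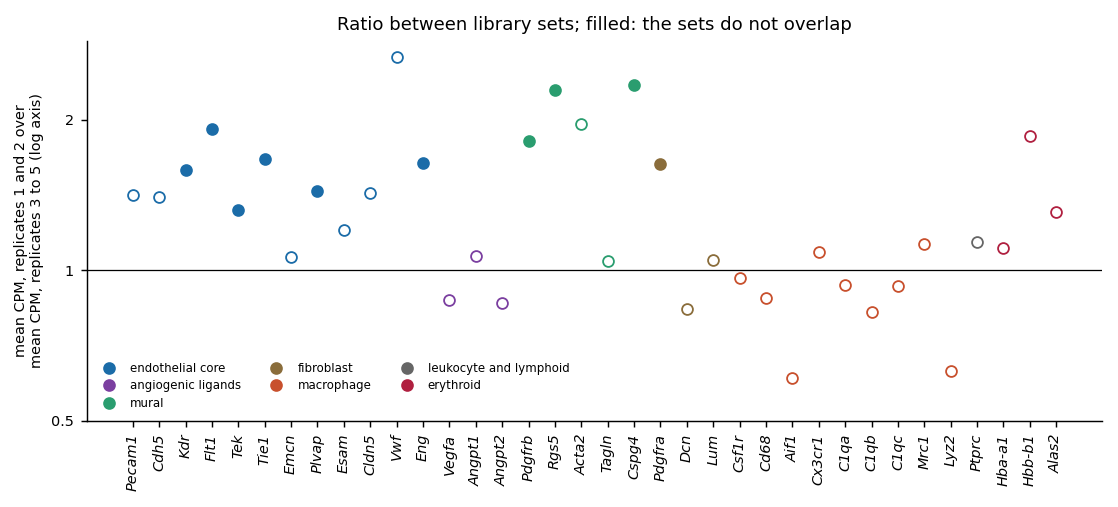
Ratio of mean CPM in replicates 1 and 2 (8 libraries) to mean CPM in replicates 3 to 5 (10 libraries), on a log axis, for 36 genes coloured by cell type; filled points are genes whose sets do not overlap. Most endothelial and mural genes lie above 1 (*Rgs5* 2.29, *Flt1* 1.91), and macrophage genes lie around 1 or below.

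Mural genes were called in no comparison by limma with all libraries and no block. *Rgs5*, a pericyte regulator of G-protein signalling, was at 123, 155, 43.2 and 66.4 CPM in hypothyroid wild type, at 125, 153, 53.5 and 48.8 CPM in hyperthyroid wild type, at 125, 119, 66.3, 66.2 and 62.1 CPM in hypothyroid *Thrb*-KO and at 103, 118, 49.5, 57.6 and 43.3 CPM in hyperthyroid *Thrb*-KO. The sets were far apart in every group and the groups overlapped. *Cspg4* (NG2, a proteoglycan of pericytes and oligodendrocyte precursors) was called or not depending on how the sets were handled. It was at 10.7, 9.85, 3.72 and 4.21 CPM in hypothyroid and 4.93, 5.85, 1.30 and 2.33 CPM in hyperthyroid wild type, lower after T3 within each set while the groups overlapped. In *Thrb*-KO it was at 8.75, 10.0, 4.34, 4.21 and 4.38 CPM before and 6.17, 4.90, 3.07, 3.22 and 1.77 CPM after T3, again lower within each set. The log2 differences were -0.83 ± 0.39 in wild type (adjusted p = 0.1649, limma) and -0.60 ± 0.35 in *Thrb*-KO (adjusted p = 0.84). With the replicate number as a block the same differences had adjusted p of 0.0002663 and 0.009687, and both were called. The blocked fit thus called 2 members for T3 in wild type and 1 in *Thrb*-KO, beside 9.84% and 1.25% of all genes. In wild type the difference was -0.82 in the first library set and -0.84 in the second, and in *Thrb*-KO -0.67 and -0.55. *Tagln* was also called for T3 in wild type within replicates 3 to 5 alone (0.72, against 0.13 within replicates 1 and 2). In that fit of replicates 3 to 5, 1508 of 13145 genes were called.

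*Acta2* and *Tagln*, contractile proteins of smooth muscle, were at 1.60 to 8.56 CPM and 2.94 to 8.31 CPM, and single libraries stood out (*Acta2* 8.56 CPM in hypothyroid wild-type replicate 1, 7.07 CPM in hypothyroid *Thrb*-KO replicate 2 and 6.25 CPM in hyperthyroid *Thrb*-KO replicate 1). *Vwf*, the von Willebrand factor of larger vessels, was high in the same 3 libraries, at 6.31, 6.58 and 6.28 CPM, and also in hyperthyroid wild-type replicates 1 and 2 (5.24 and 6.49 CPM). Of 12 further mural genes 10 were tested. *Mcam* (CD146) fell with T3 in wild type from 7.58 ± 0.67 to 3.82 ± 0.75 CPM (SD, n = 4, log2 difference -0.84). In *Thrb*-KO it went from 6.5 ± 1.2 to 4.4 ± 0.8 CPM (SD, n = 5) without a call. *Vtn*, vitronectin, was higher in *Thrb*-KO than in wild type after T3 by 0.85. *Mcam* and *Vtn* were each the 1 call of 10 in their comparison, beside 9.46% of all genes for T3 in wild type and 4.86% between hyperthyroid genotypes. No other gene of the list was called.

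Fibroblast genes were called in no comparison. *Dcn*, the matrix proteoglycan decorin, was at 89.1, 84.8, 100.9 and 92.1 CPM in hypothyroid and 94.0, 129, 101.9 and 146 CPM in hyperthyroid wild type, a log2 difference of 0.34 ± 0.14 with overlap (adjusted p = 0.1077, limma). In *Thrb*-KO it was at 97.8, 89.6, 112, 125 and 119 CPM before and 113, 103, 141, 138 and 120.4 CPM after T3 (0.18 ± 0.12). *Lum*, lumican, was lower in all *Thrb*-KO libraries after T3 (13.5 to 14.9 CPM) than before (15.2 to 18.3 CPM), as were 3.53% of all genes, with a log2 difference of -0.17 and an adjusted p of 0.9282. *Thy1*, one of 12 further fibroblast genes and also a gene of neurons and T cells, fell with T3 from 475 ± 42.6 to 167 ± 39.5 CPM (SD, n = 4) in wild type and from 426 ± 25.1 to 209.8 ± 12.5 CPM (SD, n = 5) in *Thrb*-KO, log2 differences of -1.53 and -1.02. *Mgp*, a matrix protein that inhibits calcification, was lower in hyperthyroid *Thrb*-KO by a log2 difference of -0.99 (-0.18 within replicates 1 and 2, -1.72 within replicates 3 to 5). Of the 12 further fibroblast genes 8 were tested. *Thy1* was the 1 call of 8 for T3 in wild type and in *Thrb*-KO, beside 9.46% and 1.01% of all genes. *Mgp* was the 1 call of 8 between hyperthyroid genotypes, beside 4.86%. No other gene of that list was called.

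Red cell genes stand for blood left in the vessels. *Hba-a1*, which shares its values with its copy *Hba-a2* in all 18 libraries and cannot be told from it, was at 33.9, 34.6, 29.1 and 20.8 CPM in hypothyroid and 42.8, 46.7, 44.9 and 51.3 CPM in hyperthyroid wild type. These groups did not overlap, as for 5.66% of all genes in this direction. The log2 difference was 0.66 ± 0.31 (adjusted p = 0.1781, limma), and fitting the 2 wild-type groups alone called it. In *Thrb*-KO it was at 39.3, 34.7, 18.1, 18.7 and 18.2 CPM before and 37.6, 24.4, 58.8, 18.7 and 53.4 CPM after T3, with overlap. *Hbb-b1*, a beta globin with a near-identical copy, and *Alas2*, the first enzyme of heme synthesis in red cells, differed by 0.76 ± 0.44 and 0.68 ± 0.36 with T3 in wild type, and neither was called.

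In *Thrb*-KO, none of the 34 members was called for T3 by limma, where 1.01% of all genes were called. At an unadjusted p under 0.05 there were 2 (*Cdh5* lower and *Tagln* higher), neither reaching 1.5-fold, beside 1077 of 13145 genes. By edgeR and DESeq2 0 of the same 34 were called.

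**Figure D4:**
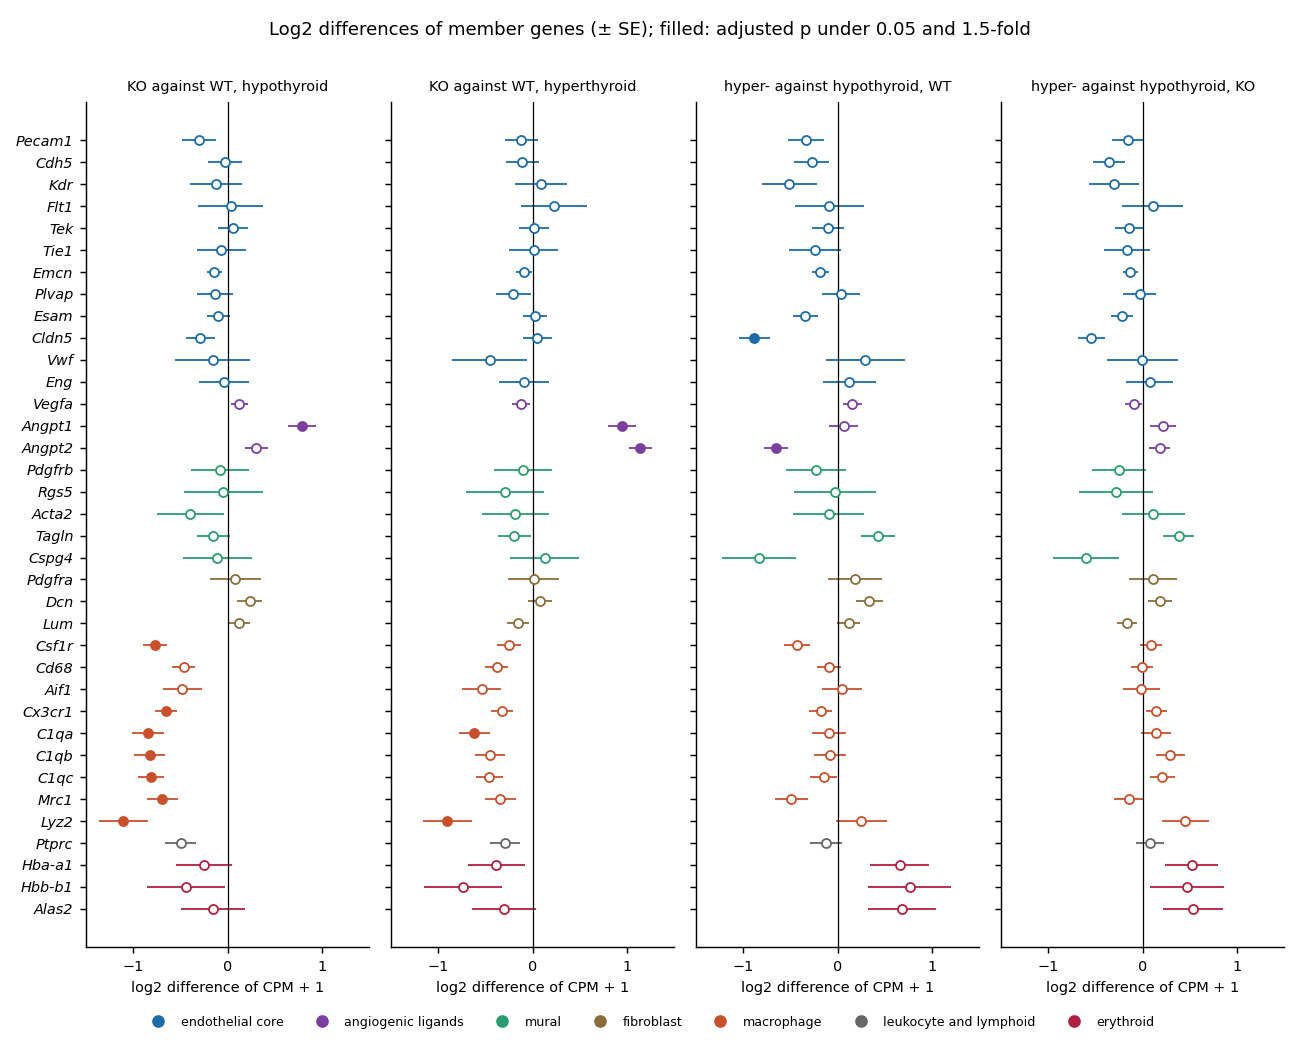
Log2 differences of CPM + 1 with their SE for 36 genes in the 4 comparisons, coloured by cell type; filled points were called (adjusted p under 0.05 and at least 1.5-fold), with *Cldn5* and *Aif1* from the wider table. Macrophage genes are shifted to the left between genotypes, from -1.10 to -0.46 in the hypothyroid comparison, while endothelial genes gather near 0.

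Sites bound by TRβ were set beside these genes. ChAP-seq captured TRβ carrying a biotinylated tag (HAB, with the ligase BirA) in untreated pituitary, and the deposited list, called on merged libraries against BirA controls, holds 8051 peaks. On mm9, 7 of the 38 genes had such a peak within 20 kb of the gene body, beside 41.3% of 12898 tested genes with coordinates. None of the 12 endothelial genes did. The chromatin came from whole pituitaries, so a missing peak does not show that TRβ is absent from a gene in vascular or immune cells. A list of 5164 peaks of cerebral cortex gave 7 of 38 (34.8% of all genes), 3 of them endothelial (*Pecam1*, *Flt1*, *Plvap*), and a deposited list of 1776 ATAC peaks that the submitters selected as T3-regulated gave 3 of 38 (*Plvap*, *Vwf* and *Angpt1*, beside 7.78% of all genes). The ATAC nuclei were those labelled by a Cre at *Thrb*, in cells that express the TRβ2 form, so nuclei of other cells were not meant to be sampled.

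Among the members called with all libraries and no block, *Angpt1* and the C1q genes had a pituitary peak. Of the further genes *Il34*, *Apln*, *Icam2*, *Thy1* and *Figf* were looked at. *Apln* had a pituitary peak in its gene body, 605 bp from its start, with 21 reads against 0 in the control (authors' false discovery rate 3.25e-32). *Figf* had an ATAC peak of the T3-regulated list in its gene body. The 3 C1q genes lie next to each other and share 1 peak, chr4:136440801-136441150, inside *C1qb* and outside its exons, 1127 bp from the *C1qb* start, with 13 HAB;BirA reads against 1 control read (authors' false discovery rate 1.36e-10). In *Angpt1* the peak chr15:42269801-42270000 had 11 reads against 1 (authors' false discovery rate 1.33e-08) and overlapped the ATAC peak chr15:42269771-42270053. The TRβ peak lies 238623 bp downstream of the annotated start, and both cover part of a coding exon. The sequence of the ATAC peak is shown because it carries the TRβ peak of a gene called between genotypes in each condition. Capitals mark the half-sites of direct repeats, AGGTCA followed by 4 free bases and a second AGGTCA, with at most 2 of 12 bases changed, on either strand. Here both are on the minus strand, at 42269924 to 42269939 and 42269984 to 42269999, and each matches in 10 of 12 bases. The second sequence is the ATAC peak upstream of *Vwf*, chr6:125477098-125477288, 19599 bp before the start, with 1 such repeat (10 of 12 bases, minus strand). Both are the plus strand of mm9.
*Angpt1* peak: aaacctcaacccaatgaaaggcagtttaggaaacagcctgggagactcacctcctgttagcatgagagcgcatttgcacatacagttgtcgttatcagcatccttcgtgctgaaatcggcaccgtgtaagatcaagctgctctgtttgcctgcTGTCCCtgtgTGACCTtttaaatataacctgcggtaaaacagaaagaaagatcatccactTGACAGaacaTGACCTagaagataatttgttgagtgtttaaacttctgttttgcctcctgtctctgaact
*Vwf* peak: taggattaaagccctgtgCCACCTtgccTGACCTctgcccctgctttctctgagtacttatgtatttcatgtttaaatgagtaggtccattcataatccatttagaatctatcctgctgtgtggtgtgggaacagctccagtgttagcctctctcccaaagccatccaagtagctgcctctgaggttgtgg
A repeat of this kind was in 30.9% of all peaks in the ATAC list and in 20.9% of all TRβ peaks of pituitary, so its presence in a single peak is a description only. The *C1qb* peak held none.

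The promoters of the macrophage genes were looked at because these genes moved together. The letters GAGGAA, the core bound by PU.1 (*Spi1*), a transcription factor of macrophages, were sought on both strands of the 250 bases before each RefSeq start (GRCm38.p6). Of the 9 macrophage genes 7 were in the table, and 5 of the 7 held the letters (*Cd68*, *Aif1*, *C1qb*, *C1qc* and *Mrc1*), beside 25.9% of all genes and 4 of 7 endothelial genes. Among 16 further macrophage genes 7 held them. *Lyz2* and *Cx3cr1*, which fell as well, held none in this window. The windows of *C1qb* (chr4:136886201-136886450) and *C1qc* (chr4:136892915-136893164), each on the minus strand, are shown with the match in capitals, which in *C1qc* is on the opposite strand (TTCCTC).
*C1qb* promoter: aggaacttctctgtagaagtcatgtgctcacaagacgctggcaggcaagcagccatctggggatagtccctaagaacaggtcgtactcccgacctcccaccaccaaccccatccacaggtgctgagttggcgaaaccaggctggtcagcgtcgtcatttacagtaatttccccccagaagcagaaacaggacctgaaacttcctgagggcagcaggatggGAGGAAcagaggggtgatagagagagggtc
*C1qc* promoter: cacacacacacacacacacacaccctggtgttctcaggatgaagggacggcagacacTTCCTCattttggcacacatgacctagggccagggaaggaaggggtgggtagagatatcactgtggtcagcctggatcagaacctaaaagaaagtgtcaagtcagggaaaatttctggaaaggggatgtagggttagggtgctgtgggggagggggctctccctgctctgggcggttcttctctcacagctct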

How the data were processed

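RNA-seq libraries of 4 groups (pools of 3 pituitaries) were used as deposited. The authors mapped single-end reads of 50 bases (BBMap 36.02) to mm9 transcripts from RefSeq, and the values they deposited are CPM for 29082 transcripts. Whole reads were recovered from the CPM steps (100% of values within 0.01 of a whole number). The transcript with the highest mean CPM stood for a gene. For ChAP-seq the authors called peaks on merged libraries with SICER and deposited, per peak, read counts, the fold ratio, the p-value and its false discovery rate. The deposited ATAC list also holds the adjusted p-value of the authors' own comparison, of which only positions were used. ChIP-seq, treated ChAP-seq and signal tracks were not analysed here.

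A gene entered the test if its CPM was above 1 in each of the 18 libraries, and limma 3.58.1 (R 4.3.3, eBayes with trend) was run on log2(CPM + 1), with the 4 groups in 1 model. The log2 difference understates changes of low genes. edgeR 4.0.16 and DESeq2 1.42.0 were run on recovered reads. Scripts were tested on simulated data. Deviations from group means were correlated between libraries of the same replicate number in different groups, at 0.13 to 0.815 over all such pairs, so a fit with the replicate block was run. Different numbers within a library set correlated as well (0.271 to 0.755), so the check does not tell the number from the set, and blocking by either called the same members. Peaks were assigned within 20 kb of gene bodies (GENCODE M1, mm9). The promoter table and its sequences are RefSeq's. Intervals were not computed for CPM, and read counts without molecular identifiers are not independent molecules.

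Every member was named. Libraries were given singly for called members, for the highest member of lists without a call, and for *Cspg4*, *Cldn5* and *Ptprc*, whose calls depended on the fit. Up to 3 called genes were named per further list. The members and lists were chosen with earlier results of these data known. Alternatives are listed in the closing section.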

Additional observations from a re-analysis of the deposited data

Results flagged for a closer look

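Within the 4 groups 13 of 152 combinations of gene and group held a library far from its neighbours relative to the range of the group (Dixon's criterion, which chance alone meets in about 1 of 20). Vessel wall genes made up 7 of the 13 with *Vwf*, *Acta2*, *Tagln* and *Esam*. *Acta2* was highest in hypothyroid wild-type replicate 1 (8.56 CPM, next 2.83), hypothyroid *Thrb*-KO replicate 2 (7.07, next 2.06) and hyperthyroid *Thrb*-KO replicate 1 (6.25, next 2.87). *Vwf* was highest in the same libraries of *Thrb*-KO, at 6.58 CPM (next 2.32) and 6.28 CPM (next 2.12), and *Tagln* in the same wild-type library, at 6.54 CPM (next 4.24). *Esam* was lowest in hyperthyroid wild-type replicate 3, at 5.15 CPM (next 8.46), the library with the lowest TMM factor.

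*Angpt2* was lowest in hyperthyroid *Thrb*-KO replicate 2 (11.7 CPM, next 15.6), and *Cd68* was lowest in the same library (1.89 CPM, next 2.85). *Vegfa* was highest in hypothyroid wild-type replicate 4 (45.8 CPM, next 39.4), *Emcn* in hyperthyroid *Thrb*-KO replicate 3 (11.0 CPM, next 9.62), *Lum* in hypothyroid *Thrb*-KO replicate 4 (18.3 CPM, next 15.5) and *Cd79a* in hyperthyroid wild-type replicate 2 (0.824 CPM, next 0.497).

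The T3 response of *Angpt2* differed between genotypes by 0.83 on the log2 scale (adjusted p = 0.005065, limma interaction), with -0.66 in wild type and 0.18 in *Thrb*-KO.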

How the results depend on the processing

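Of 14 named log2 differences, none reversed under any alternative. Outside the leave-one-out fits, 242 of 251 recomputed values kept their side of the threshold and 9 did not. The settings with no fold limit and with unadjusted p only loosen the rule on the same fit. A called value could not lose its call in them, so the 242 include values fixed in advance.

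For T3 in wild type 1 member was called. There were 2 with CPM above 1 in at least 4 libraries, with no filter on low values, with the replicate block (pairing), with the library set as a block, with no fold limit, with unadjusted p, with the 2 groups alone and with edgeR in the wider table, 3 with the wider filter and the set block, 4 in replicates 3 to 5 alone and 0 with TMM scaling, and in replicates 1 and 2 alone the 1 call was *Cspg4* and not *Angpt2*. For T3 in *Thrb*-KO 0 were called, and 1 with the replicate block, the set block, each set alone, and either alternative in the wider table. Between hypothyroid genotypes 8 were called and 5 in replicates 1 and 2 alone. Between hyperthyroid genotypes 4 were called, 7 by edgeR, by DESeq2 and in replicates 3 to 5 alone, 8 by edgeR in the wider table and 2 in the fit of the 2 groups alone. The wider edgeR and the wider set-block fits were added after seeing the data. Leaving out 1 library gave 1 to 3 calls for T3 in wild type, 0 to 0 for T3 in *Thrb*-KO, 7 to 8 and 2 to 5 between hypothyroid and hyperthyroid genotypes, and 1 to 2 for the difference of responses (2 without hyperthyroid wild-type replicate 4, adding *Csf1r*). Beyond *Cspg4* the replicate block changed no call of a member. Members with a pituitary peak numbered 7 within 20 kb, 13 within 50 kb, 2 in the gene body and 3 with the higher-scoring peaks. The causes of these changes were not tested.

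TMM scaling moved the calls over all genes for T3 in wild type from 509 higher and 735 lower to 674 and 539, and the median log2 difference from -0.04 to 0.05. Between hyperthyroid genotypes the calls moved from 334 and 305 to 239 and 389. Genes under 1 CPM, with 5 to 33 reads for *Cd3e*, are limited by depth.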

Other observations

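Lists of other blood cells were also counted. Of 16 further lymphoid genes 4 reached CPM above 1 in all libraries, and 0 of the 4 were called in limma in any comparison; their summed level was 13.5 to 23.5 CPM over all libraries. Of 12 further red cell genes 5 were tested and 0 were called. Granulocyte and mast cell genes had 1 of 12 tested (*Lcn2*), with a log2 difference of -0.63 between hypothyroid genotypes that was not called.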
